A study of Mus musculus with 6 samples.

Results

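The 6 mitochondrially encoded genes described here are mt-Nd4l, mt-Nd4, mt-Nd5, mt-Nd6, mt-Cytb and the transfer RNA gene mt-Tp. They were taken by name from the deposited expression table and are 6 of its 4994 genes. Gm10222, a pseudogene on chromosome 1, is read together with mt-Nd4l because its sequence is the same. RNA-seq was done on mouse inner ear organoids, floating 3-dimensional cultures of wild-type cells that the labels call epithelial. The 3 PD samples were grown for 10 days with 1 µM PD0325901, a compound that inhibits both MEK kinases (MEK1 and MEK2); the 3 DMSO samples received an equal volume of the solvent instead. All 6 cultures shared a medium, renewed every 2 days, with 3 µM of the GSK3 inhibitor CHIR99021 and the growth factors IGF (50 ng/mL), EGF (20 ng/mL) and bFGF (10 ng/mL). The study asked how the inhibitor acts on the making of hair cells, the sound and motion sensors of the inner ear; the labels do not name the mouse strain, its age or whether the samples of a group were separate cultures, so p-values here speak only of the spread among these samples, which may be technical.

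The mitochondrial genome is a small circle that encodes core subunits of the respiratory chain together with the ribosomal and transfer RNAs needed to translate them. Both of its strands are transcribed as long precursors, and the transfer RNAs that lie between many of the other genes mark places where the precursors are cut into smaller RNAs. Complex I, or NADH dehydrogenase, passes electrons from NADH to ubiquinone and pumps protons. Complex III, whose catalytic core is cytochrome b, passes them on to cytochrome c. Inner ear hair cells and the ion-transporting epithelia around them depend heavily on this energy supply.

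All 6 genes have 1 exon and lie in the stretch from base 9877 to base 15422 of the mitochondrial genome (build mm10, coordinates from GENCODE M21). The other 8 protein genes of the genome, which are not analysed here, all lie before that stretch, between bases 2751 and 9806. mt-Nd4l, mt-Nd4, mt-Nd5 and mt-Nd6 encode membrane subunits of complex I that belong to its proton-pumping arm, mt-Cytb encodes cytochrome b, and mt-Tp encodes the transfer RNA for proline. The first 3 and mt-Cytb are read on the plus strand, at 9877 to 10173 (ENSMUSG00000065947), 10167 to 11544 (ENSMUSG00000064363), 11742 to 13565 (ENSMUSG00000064367) and 14145 to 15288 (ENSMUSG00000064370). mt-Nd6 (13552 to 14070, ENSMUSG00000064368) and mt-Tp (15356 to 15422, ENSMUSG00000064372) are read on the minus strand, mt-Nd6 as the 1 protein gene there and mt-Tp as 1 of 8 transfer RNA genes. The strands differ in base composition: G made up 28.1% of the mt-Nd6 transcript and 29.9% of mt-Tp, against 9.80% to 12.2% in the 4 plus-strand members. The 5 transfer RNA genes that lie between the members are not analysed here.

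The sequences that bear on how these values can be read are shown 5′ to 3′ from the GENCODE M21 transcripts. The mt-Tp gene is 67 bases long, and the capitals mark its anticodon, at bases 31 to 33, in the middle of a 7-base loop closed by a stem in which 5 of 5 base pairs can form.
mt-Tp: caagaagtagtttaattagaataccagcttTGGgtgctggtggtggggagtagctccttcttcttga
The mt-Nd4l gene is 297 bases long, and its first 294 bases are identical to the whole Gm10222 transcript; the capitals mark the 3 bases that Gm10222 lacks.
mt-Nd4l: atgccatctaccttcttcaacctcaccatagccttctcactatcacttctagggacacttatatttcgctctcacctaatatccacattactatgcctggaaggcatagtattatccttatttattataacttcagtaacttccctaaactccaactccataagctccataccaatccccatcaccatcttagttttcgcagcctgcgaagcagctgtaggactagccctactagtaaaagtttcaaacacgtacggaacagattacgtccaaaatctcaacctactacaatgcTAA
Neighbouring members also overlap. The last 7 bases of mt-Nd4l, in capitals, are the first 7 of mt-Nd4 on the same strand.
mt-Nd4l end: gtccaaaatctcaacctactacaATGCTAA
mt-Nd4 start: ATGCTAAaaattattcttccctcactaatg
mt-Nd5 and mt-Nd6 run towards each other and share 14 bases, in capitals, on opposite strands.
mt-Nd5 end: attatcttatactcaaTTAATCTCGAGTAA
mt-Nd6 end: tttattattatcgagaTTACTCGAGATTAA
The libraries came from a stranded kit, but whether counting used the strand is not given in the sources used here. Reads of mt-Nd6 and mt-Tp therefore cannot be told from reads of the plus-strand precursor over the same bases.

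**Figure D1:**
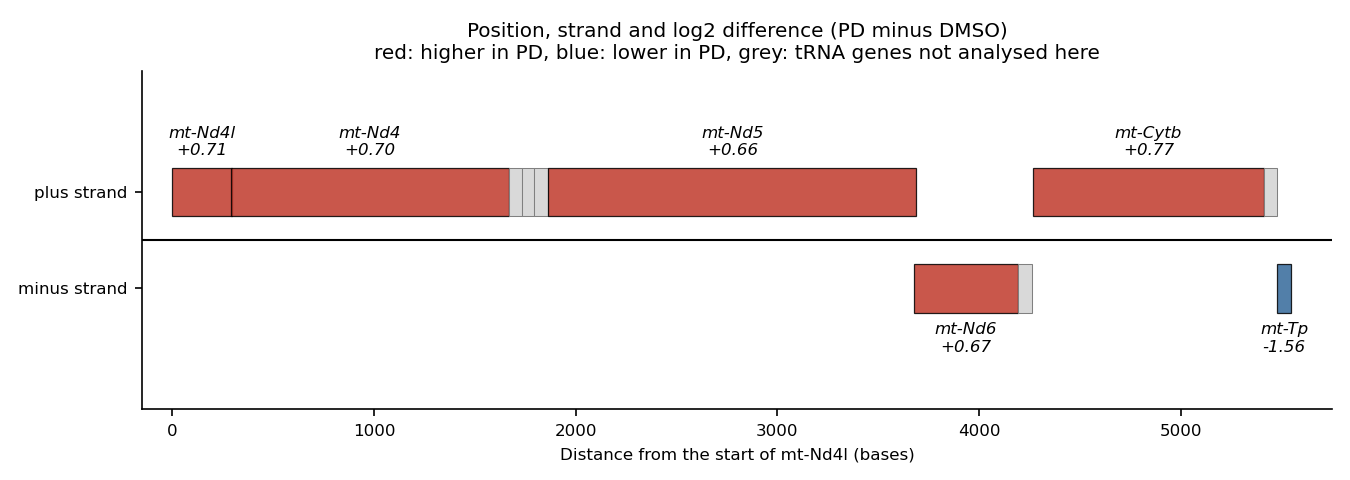
Map of the members on the mitochondrial genome, with the distance from the start of mt-Nd4l in bases on the x axis and the strand on the y axis; grey boxes are transfer RNA genes not analysed here, and the number at each coloured gene is its log2 difference, PD minus DMSO. The 5 protein genes, which are annotated on both strands, were higher in PD, and mt-Tp, at the end of the stretch, was lower.

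The authors deposited only genes that they had found to differ between these samples: in the authors' deposited table no row carries a fold under 1.5, up or down, and the largest adjusted p is 0.0499. These folds are not ratios of the deposited means, which point the other way in 33 of the 4994 rows and differ by less than 1.5 times in 323. Differences of the members were thus fixed by that selection, and their tests are given as a description of these libraries, not as independent evidence. By limma over all 4994 genes, 95.5% were called at an adjusted p under 0.05, with 44.5% called higher and 51.1% lower in PD, and 95.2% had groups without overlap: PD lay wholly above DMSO in 44.6% and wholly below it in 50.6%. The balance of directions depended on scaling: with libraries set to a common median ratio 2262 genes were called higher and 2167 lower, against 2220 higher and 2550 lower as deposited. Values are normalized signals of unstated scale, and their sum over all listed genes ran from 290560 to 296997 in PD and from 289255 to 293278 in DMSO; these are not depths, which are unknown. Of the markers chosen for the labelled cell type and its neighbours, the 5 of epithelium summed to between 887.4 and 900.3 in PD and between 1808 and 1920.3 in DMSO, but they went both ways: Epcam, Krt8, Krt18 and Cldn6 fell, while Cdh1 rose to 114 ± 9.27 in PD, against 53.6 ± 1.54 in DMSO (SD, n = 3 each). The 5 of mesenchyme summed to between 3933 and 4453 in PD and between 1728 and 1898 in DMSO; Lum, Dcn and Vim make up nearly all of that sum and rose, while Col1a1 was not called, at 0.67 in PD and 0.903 in DMSO on average (limma adjusted p = 0.362). The 3 listed of 5 supporting cell markers summed to 25.9 to 30.4 in PD and 55.8 to 60.6 in DMSO, and all 4 of neurons to 6.92 to 7.65 in PD and 0.67 to 0.85 in DMSO. Pou4f3, the 1 listed of 5 hair cell markers, lay between 0.40 and 0.85 in PD and between 0.04 and 0.17 in DMSO, and the 1 listed of 3 leukocyte markers, Ptprc, lay between 0.06 and 0.21 in PD and at 0 in DMSO; the 2 erythroid and 3 muscle markers are not analysed here. These shifts moved with every difference below, and their part in it was not tested; in bulk samples fewer cells of a type and less RNA per cell cannot be told apart.

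All 5 listed protein genes rose in PD by nearly the same factor, and the transfer RNA gene fell. The ratio of the PD mean over the DMSO mean lay between 1.58 and 1.70 in the 5 protein genes and was 0.337 in mt-Tp. On the log2(value + 1) scale the 5 differences lay between 0.66 and 0.77, a range of 0.11, with SE of 0.06 to 0.09 and adjusted p of 2.89e-05 to 0.000313 (limma). Their median was 0.70, beside a median of -0.42 over all listed genes and of 0.82 over those that are higher in the authors' deposited table. In that table their folds of PD over control, from 1.535 to 1.654, stood near the lower bound of 1.5: of the 2340 genes listed as higher, 103 had a fold below that of mt-Nd5 and 414 a fold below that of mt-Cytb. A gene with a smaller rise could not be listed, so the lower end of this range was set by the selection. The closeness of the 5 genes therefore does not describe all mitochondrial protein genes.

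mt-Cytb was the highest of the 6 in every library when mt-Nd4l was read without its copy Gm10222. The sum of mt-Nd4l and Gm10222, given below, was above mt-Cytb in every library. The normalized signal of mt-Cytb was 13020.39, 13480.41 and 13392 in the 3 PD libraries, against 8421, 7236 and 7781 in the 3 DMSO libraries. The groups stood far apart, with every PD library above all 3 DMSO libraries. The means were 13298 ± 244 in PD and 7813 ± 593 in DMSO (SD, n = 3 each), and on the log2(value + 1) scale the groups differed by 0.77 ± 0.07 (SE, limma adjusted p = 2.89e-05).

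Among the complex I subunits, mt-Nd4 stood at 7907, 8212 and 7987 in PD and at 5305, 4623 and 4967 in DMSO. Its groups did not overlap, and its log2 difference was 0.70 ± 0.06 (SE, limma adjusted p = 3.46e-05). mt-Nd5, the longest member, stood at 5915, 6176 and 6422 in PD and at 4146, 3611 and 3969 in DMSO. Its log2 difference was 0.66 ± 0.07 (SE, limma adjusted p = 6.06e-05), the smallest of the 5. mt-Nd6, the subunit encoded on the minus strand, stood at 5922, 7171 and 6643 in PD and at 4472, 3737 and 4216 in DMSO. It varied the most among PD libraries, with a coefficient of variation of 9.54% against 1.13% to 4.11% in the other 4 protein genes, and its log2 difference was 0.67 ± 0.09 (SE, limma adjusted p = 0.000313). In DMSO, replicate 2 was the lowest library for all 5 protein genes.

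mt-Nd4l stood at 10400.37, 10448 and 10227 in PD and at 6262, 5697 and 7073 in DMSO, with a log2 difference of 0.71 and an SE of 0.08 (limma adjusted p = 0.000113). Its identical copy Gm10222 had the higher mean in both groups, at 11630.33, 11571 and 12473 in PD and at 8941, 6727 and 6509 in DMSO, with a log2 difference of 0.70 and an SE of 0.12 (limma adjusted p = 0.000907). Both rows were higher in every PD library, but in DMSO they did not move together, since replicate 3 was the highest for mt-Nd4l and the lowest for Gm10222. mt-Nd4l held 47.2%, 47.5% and 45.1% of the sum of both rows in PD and 41.2%, 45.9% and 52.1% in DMSO. The sum itself was 22250 ± 389 in PD and 13737 ± 1396 in DMSO (SD, n = 3 each), and with both rows added before the fit the log2 difference was 0.70. How the authors' counting divided reads between identical sequences is not given in the sources used here, so the level of mt-Nd4l alone is uncertain.

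mt-Tp, the transfer RNA gene, went the other way. It stood at 95.23, 93.1 and 92.4 in PD and at 280.15, 262 and 289 in DMSO. The 3 PD libraries lay close together and below all 3 DMSO libraries. The means were 93.6 ± 1.49 in PD and 277 ± 13.8 in DMSO (SD, n = 3 each), and the log2 difference was -1.56 ± 0.05 (SE, limma adjusted p = 7.73e-07). In the authors' deposited table its fold of PD over control was 0.328, and 1019 of the 2654 genes listed as lower had a smaller one. The gene is 67 bases long, and the libraries came from a kit for mRNA. Whether the reads of mt-Tp came from mature transfer RNA or from longer precursors was not tested. Its values thus cannot be read as levels of the transfer RNA for proline.

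**Figure D2:**
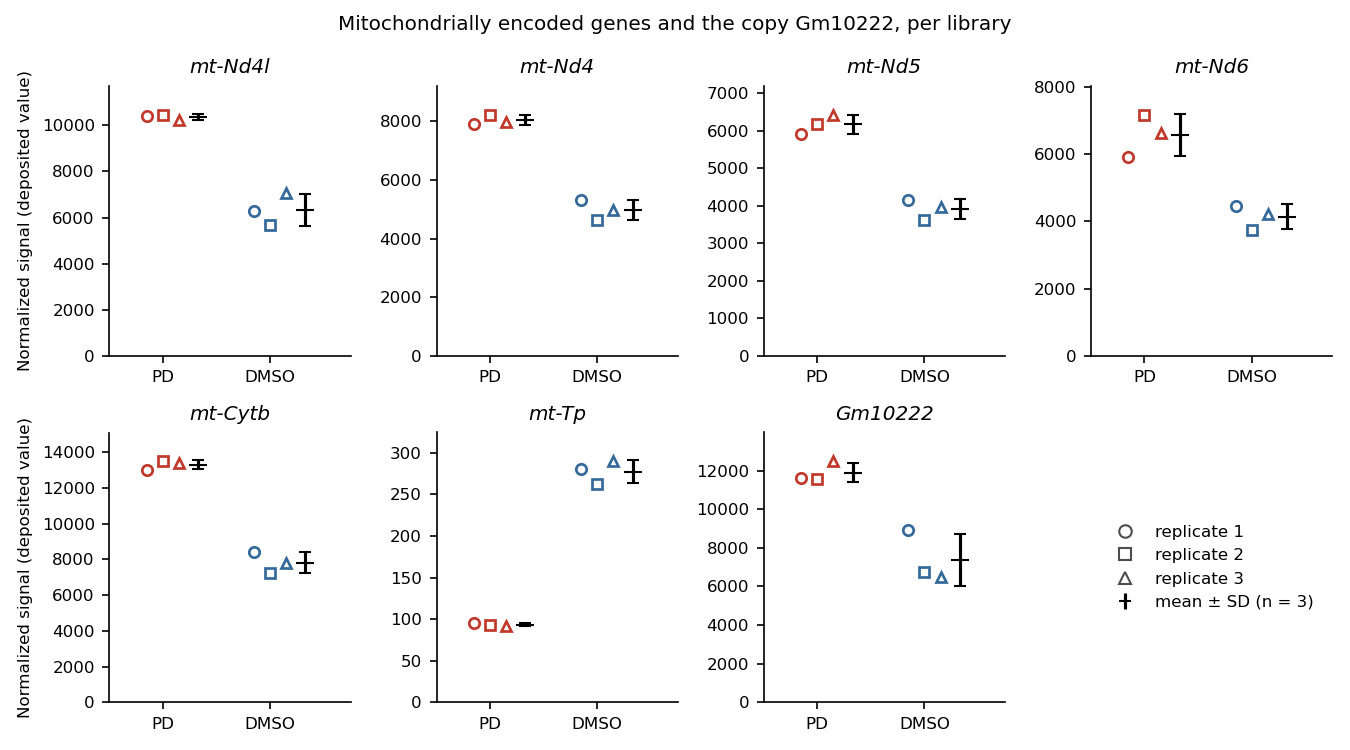
Normalized signal per library (y axis, deposited values, starting at 0) for the 6 members and Gm10222 in PD (left, red) and DMSO (right, blue); symbols mark the replicate number and bars the mean and SD of 3 libraries. PD libraries lie above all DMSO libraries in every panel except that of mt-Tp, where they lie below, at 92.4 to 95.23 against 262 to 289.

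The order of the levels was the same in both groups: mt-Cytb first, then mt-Nd4l, mt-Nd4, mt-Nd6, mt-Nd5 and mt-Tp. These are deposited values, which behave as values already divided by gene length. mt-Nd4l is ranked here without its identical copy Gm10222, so its place is uncertain. The sum of both rows averaged 22250 in PD and 13737 in DMSO, above the mt-Cytb means of 13298 and 7813. Every step of that order held within each of the 3 PD and 3 DMSO libraries, but the ranges of mt-Nd6 and mt-Nd5 overlapped across libraries in both groups, at a ratio of means of 1.07 in PD and 1.06 in DMSO. The step from mt-Nd5 down to mt-Tp was 66.0 in PD and 14.1 in DMSO, as ratios of means. By mean value among the 4994 listed genes, mt-Cytb ranked 2 in both groups, while mt-Tp ranked 312 in PD and 125 in DMSO.

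Ratios of members within a library do not depend on how libraries were scaled to each other. For each of 6 ratios the PD and DMSO libraries were compared by an exact two-sided permutation test, in which 3 against 3 cannot give a p below 0.10. mt-Tp amounted to 0.731%, 0.691% and 0.690% of mt-Cytb in PD libraries, against 3.33%, 3.62% and 3.72% in DMSO libraries. The ratio was thus 5.05 times as high in DMSO as in PD, a log2 difference of -2.34, and the groups did not overlap (exact permutation p = 0.10, 0.30 adjusted over the 6 ratios). The authors listed mt-Tp as lower and mt-Cytb as higher, so a fall of this ratio in PD was fixed by their selection. Its test only describes these libraries. The 5 listed protein genes, in contrast, kept nearly the same proportions to each other, but all 5 were selected for a rise.

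mt-Nd6 over mt-Nd5, which sets a minus-strand gene against its overlapping plus-strand neighbour, was 1.00, 1.16 and 1.03 in PD and 1.08, 1.03 and 1.06 in DMSO. The groups overlapped, with a log2 difference of 0.0066 (exact permutation p = 1, also adjusted). mt-Nd4l over mt-Nd4, the overlapping pair on 1 strand, differed by 0.016 on the log2 scale and also overlapped (exact permutation p = 0.90, 1 adjusted). Its log2 ratio had an SD of 0.03 in PD and 0.14 in DMSO; with Gm10222 added to mt-Nd4l the SD was 0.04 in PD and 0.05 in DMSO, and the log2 difference 0.0039 (exact permutation p = 1). mt-Nd5 over mt-Nd4 differed by -0.036, with overlapping groups (exact permutation p = 0.40, 0.80 adjusted). mt-Nd4 over mt-Cytb was 0.607, 0.609 and 0.596 in PD and 0.630, 0.639 and 0.638 in DMSO. This ratio was slightly lower in every PD library, by 0.073 on the log2 scale (exact permutation p = 0.10, 0.30 adjusted).

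**Figure D3:**
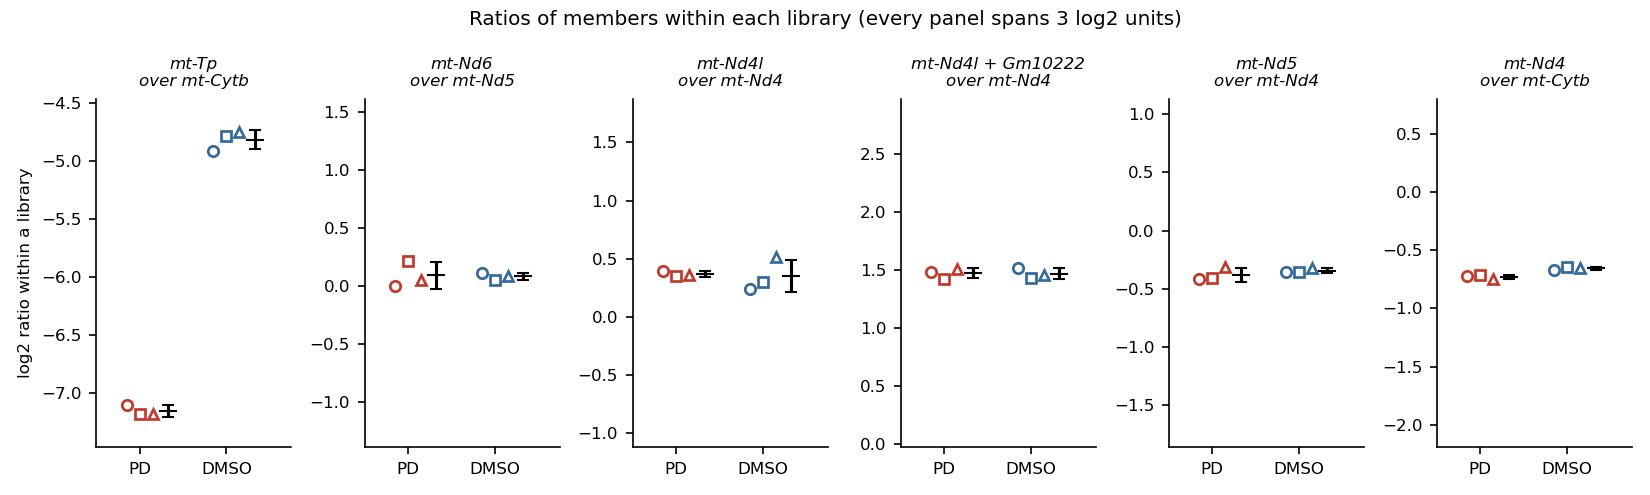
log2 ratios of members within each library (y axis) for PD (left, red) and DMSO (right, blue); circles, squares and triangles mark replicates 1, 2 and 3, bars the mean and SD of 3 libraries, and every panel spans 3 log2 units. Only mt-Tp over mt-Cytb moves by more than 1 unit, with a difference of -2.34, while the other 5 ratios differ by at most 0.073 in size.

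Together the 6 genes held 14.9%, 15.3% and 15.3% of the summed listed values in PD, against 9.99%, 8.59% and 9.65% in DMSO. The share was higher in every PD library, by a mean of 5.75 percentage points. It is a share of listed genes, not of a library. Since these rows are so large, scaling bears on their differences: with libraries set to the same sum of the other rows, the 5 protein genes differed by 0.82 to 0.93 on the log2 scale and mt-Tp by -1.40. With libraries set to a common median ratio, which shifted the median of all listed genes by 0.24, they differed by 1.02 to 1.13 and mt-Tp by -1.20. Directions and calls of the 6 genes were the same under each scaling tried.

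Other listed rows carry mitochondrial sequence as well. Besides Gm10222 (chromosome 1, 24612407 to 24612700, minus strand), 2 pseudogenes within the same stretch of chromosome 1 matched a mitochondrial gene nearly whole, and the genes they match are not analysed here. Gm28438 (24612775 to 24613119, minus strand) matched mt-Nd3, a further complex I subunit gene, at 99.7% identity over 345 bases. It had the highest mean of all 4994 rows in both groups, at 15299.98 ± 642 in PD and 9061 ± 606 in DMSO (SD, n = 3 each), and rose by 0.76 ± 0.07 on the log2 scale (SE, limma adjusted p = 3.31e-05). Gm29216 (24615706 to 24616197, minus strand) matched the end of mt-Co1, a complex IV subunit gene, at 99.8% identity over 483 bases. It stood at 439.79, 342 and 746 in PD and at 574, 1581 and 1316 in DMSO, so that its groups overlapped. Its log2 difference was -1.14 ± 0.42 (SE, limma adjusted p = 0.0303), and this call was lost without DMSO replicate 2 (-0.85, adjusted p = 0.103) and 3 (-0.98, 0.0854), without PD replicate 1 (-1.07, 0.0813) and 2 (-0.89, 0.106), and under scaling by the sum of other rows (-0.98, 0.0502) or the median ratio (-0.78, 0.101).

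**Figure D4:**
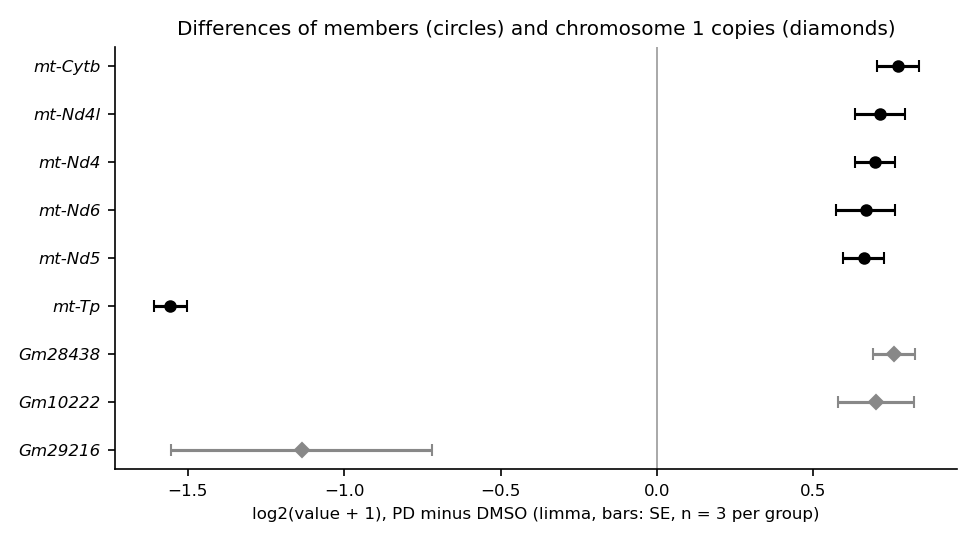
Differences on the log2(value + 1) scale, PD minus DMSO (x axis), with SE from limma (3 libraries per group), for the 6 members (circles) and the 3 pseudogenes on chromosome 1 (diamonds). The 5 protein genes, Gm10222 and Gm28438 cluster between 0.66 and 0.77, and mt-Tp and Gm29216 lie at -1.56 and -1.14.

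Of the genes that work with the members, few are in the table. Chosen were 7 lists of nuclear genes for complex I, complex III and the upkeep, transcription, processing and translation of the mitochondrial genome. Of their 142 genes 8 are listed, of which 2 rose, 5 fell and 1 was not called. Over all 4994 listed genes 95.5% were called, 44.5% higher and 51.1% lower, so these counts do not set the lists apart. The rest of the 142 genes are not analysed here. Of 37 nuclear subunit genes of complex I only Ndufv3, an accessory subunit of the NADH-oxidising part, is listed, and it fell to 70.1 ± 7.19 in PD, against 99.4 ± 2.13 in DMSO (SD, n = 3 each; log2 difference -0.50 ± 0.08, SE, limma adjusted p = 0.000552). Nubpl, which inserts iron-sulfur clusters into complex I, is the 1 listed of 17 assembly factors and fell to 4.94 ± 0.645 in PD, against 7.12 ± 0.566 in DMSO. Lyrm7, which delivers the Rieske protein to complex III, is the 1 listed of 15 in its list and was not called, at 2.34 ± 0.549 in PD and 2.37 ± 1.36 in DMSO (SD, n = 3 each; limma adjusted p = 0.864). The authors' deposited table lists it as lower, with a fold of 0.414, whereas the ratio of its deposited means is 0.990.

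Of 21 genes of transcription and upkeep of the mitochondrial genome 3 are listed. Mterf4, which helps to assemble the mitochondrial ribosome, rose to 31.7 ± 0.75 in PD, against 19.8 ± 1.32 in DMSO. Top1mt, the mitochondrial topoisomerase that relieves twist in the circle, fell to 3.93 ± 0.336 in PD, against 7.85 ± 0.189 in DMSO, and Mgme1, a nuclease of its replication, to 5.23 ± 0.332 in PD, against 9.51 ± 0.694 in DMSO (SD, n = 3 each). Of 17 mitochondrial transfer RNA ligases 2 are listed, 1 called higher and 1 lower, and the latter is not reported here. Cars2, which charges cysteine, rose to 31.3 ± 1.93 in PD, against 18.95 ± 1.52 in DMSO (SD, n = 3 each). Its log2 difference was 0.69 ± 0.09 (SE, limma adjusted p = 0.000174). The ligase for proline, the partner of mt-Tp, is not analysed here, and neither are the 23 genes of mitochondrial RNA processing or the 12 regulators of mitochondrial content that were chosen.

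The rows most like the members over the 6 libraries were found by the root mean square distance of log2(value + 1) after each row was centred on its mean. Nearest to mt-Cytb were Cryab, which encodes a small heat shock protein, at a distance of 0.029, then Gm28438 at 0.031, Tcta and Fam174a at 0.036 and 0.038, and mt-Nd4 at 0.038. mt-Nd5 ranked 17 among the 4993 other rows, mt-Nd6 71 and mt-Nd4l 114. Nearest to mt-Tp at a pseudocount of 1 were Alkal2, Map2k1, which encodes the inhibitor's target MEK1, at 0.065, Blm, which encodes a DNA helicase, Fscn1, which encodes the actin bundler fascin, and Prom2. Alkal2, a receptor ligand gene listed at 0 in every PD library, and Prom2 have values near the pseudocount, which sets their place: at a pseudocount of 0.1, chosen after seeing the data, they ranked 3741 and 836. Map2k1 ranked 2 at a pseudocount of 1, 3 at 0.1 and 5 at 5, and Cryab and Gm28438 stayed first and second for mt-Cytb at all 3, while the other low-valued rows moved: at 5, Tcta ranked 60, Fam174a 388, Blm 132 and Fscn1 46. All of these rows were selected by the authors for the same contrast.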

How the data were processed

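Gene expression was measured by RNA-seq in 6 libraries, 3 PD and 3 DMSO, prepared with a stranded kit for mRNA (2 µg of total RNA each), per the labels. Trimmomatic, HISAT2, HTSeq, DESeq2 and the mouse build mm10 are named in the submitters' processing notes; their roles and versions, and the annotation and strandedness of the counting, are not stated there. The authors deposited a normalized signal per gene and library, rounded to 2 decimals, with their group means, a fold (ratio) of PD over control, its log2, and p-values before and after adjustment. The scale of the signal is not stated per the file headers. Among group means of 1 to 5, the median variance over mean was 0.167 in genes of up to 1500 bases and 0.0604 in genes above 3000, as for signals divided by length. Depth is unknown.

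limma 3.58.1 (R 4.3.3) was fitted with a trend on log2(value + 1) over all 4994 genes, without a filter or block; calls are at a Benjamini-Hochberg adjusted p under 0.05. This scale understates changes of low values. The procedure was also run on simulated data, made without the authors' selection of genes. That run therefore does not show how the fit behaves on a table selected in this way. Annotation was GENCODE M21 (4988 identifiers found, 6 not). Transcripts of listed genes were aligned to mitochondrial ones with blastn 2.17.0 (identity of at least 95% over at least 80%). Other values used Python 3.11.15, pandas 2.3.3 and scipy 1.17.1. All columns of library values were matched to a sample (0 unmatched).

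Members, lists and markers were chosen with earlier results of these data known. Named are all members and copies, up to 4 genes per list by adjusted p, and the 5 rows nearest to mt-Cytb and to mt-Tp; 1 gene of the lists is counted but not reported here. Alternatives were other pseudocounts (0.1 and 5), a filter (at least 1 in at least 3 libraries), 3 scalings, no trend, a replicate block, mt-Nd4l summed with Gm10222, and leaving out each library.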

Additional observations from a re-analysis of the deposited data

How the results depend on the processing

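The 17 results that the comparisons rest on are counts of calls, the 6 genes, their share and their ratios. Single other genes such as Gm29216 are not among them. Of their 186 alternative values, 183 kept direction and call, moved by less than the spread between replicates or, for counts, stayed of similar size. Counts of calls over all genes and in the lists were judged by size only. Over all genes the count ran from 4159 to 4803, against 4770 in the main fit. The balance of higher and lower calls turned under scaling by the median ratio. The 6 genes were called under each alternative tried, with adjusted p up to 0.00184. Leaving out 1 library gave log2 differences of 0.59 to 0.83 in the 5 protein genes, -1.60 to -1.52 in mt-Tp and -2.38 to -2.30 in the ratio of mt-Tp over mt-Cytb. It turned the sign of 3 ratios that did not differ between groups: mt-Nd6 over mt-Nd5 (-0.057 to 0.050), mt-Nd4l over mt-Nd4 (-0.039 to 0.096) and the same with Gm10222 (-0.016 to 0.031). The share's difference was 5.35 to 6.04 percentage points without 1 library, 7.27 with Gm10222 added, 4.40 without mt-Nd4l, and 9.15 with all 3 copies added, an alternative chosen after seeing the data; these follow from which rows are summed. With a replicate block 4761 genes were called, against 4770 without it, and the 6 genes kept their calls. Libraries of the same replicate number did not deviate together (correlations of -0.032 to -0.0013 over 4994 genes in 3 pairs). The labels do not say whether they share more than a number. Without read counts, the counting error behind a value is unknown.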
